A study of Mus musculus with 6 samples.

Results

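Mouse alveolar macrophages of wild-type genotype, cultured and sampled on day 2, were compared with and without the cytokine GM-CSF by RNA sequencing, and the genes that differed are described here by what their products do. The comparison uses 4 of the 6 libraries in the series: 2 from cells given GM-CSF, which the sample names call controls, and 2 from cells that received no GM-CSF. The remaining 2 libraries, from cells given GM-CSF together with the compound labelled DON, also day 2 and wild type, enter only the estimate of the spread between replicates. The labels name the cell type as alveolar macrophages and the cell line as AM, without saying whether the cells were taken directly from animals or passaged. They also do not say whether the 2 libraries of a group came from separate cultures or animals, and the p-values then speak only of the variation seen among these libraries, which may be technical. Membership in each group was read from the treatment label of each sample.

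GM-CSF is a cytokine that alveolar macrophages need to mature and to persist in the airspace, where they clear surfactant lipid, inhaled particles and dying cells. It binds a receptor made of a specific alpha chain, Csf2ra, and a shared beta chain, Csf2rb, and signals through the kinase JAK2 to the transcription factor STAT5, with ERK and NF-kB pathways alongside. Cish, Socs2 and Socs3 encode inhibitors of cytokine signalling that STAT factors induce and that act back on the receptor. Macrophages sense their surroundings through surface receptors for microbial products, antibodies, lipids and cytokines, and they act on neighbouring cells by secreting chemokines, proteases and complement proteins.

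Libraries held between 28800939 and 35196387 counts assigned to genes, with at least 1 count for 14892 to 15188 genes. Levels are given as CPM, counts scaled to library size and by edgeR's TMM factors, which compare a gene between libraries, and as the authors' FPKM, which also divide by length and so allow genes to be ranked. At this depth 3 counts in each library correspond to 0.0907 CPM without GM-CSF and 0.0944 CPM with it. The labelled cell type was checked against 27 alveolar macrophage markers, all of which were in the table and passed the filter. With GM-CSF 9 were higher (33.3%, against 27.5% of all genes tested) and 13 lower (48.1%, against 29.3%). Among them Car4 was under 1 CPM without GM-CSF. The summed level of the 27 markers was 27257 and 26615 CPM in the 2 libraries without GM-CSF and 28045 and 28288 CPM in the 2 with it. A sum weighs abundant markers most, and Car4 alone added 661 and 652 CPM with GM-CSF. The median log2 change of the 27 was -0.14, with 5 at least 2-fold higher and 2 at least 2-fold lower. The integrin subunit Itgax was at 3244 and 2810 CPM without GM-CSF and 2987 and 3082 CPM with it. Siglec5, the table's symbol for Siglec-F, was at 511 and 476 CPM without and 387 and 400 CPM with the cytokine. Of 11 markers of macrophages in general 9 fell (81.8%) and 1 rose (9.09%). Their summed level was 66002 and 65839 CPM without against 32640 and 32826 CPM with GM-CSF, with the lysozyme gene Lyz2 contributing most of it. Counts in this and the other marker lists are to be read against the same shares of all genes tested. In bulk RNA, fewer cells that express a gene and less of its RNA per cell cannot be told apart.

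GM-CSF changed a large share of the genes tested, with rises and falls in similar numbers. Of 12340 genes tested, 7014 (56.8%) differed at an adjusted p under 0.05 by the quasi-likelihood test of edgeR, adjusted by the Benjamini-Hochberg method. The level was higher with GM-CSF for 3393 genes (27.5%) and lower for 3621 (29.3%). A call with a difference of at least 2-fold was made for 1446 genes (11.7%), of which 623 (5.05%) were higher and 823 (6.67%) lower. The median log2 change over all genes tested was -0.02. The split between directions depends on scaling: dividing by total counts alone moved the median by 0.12 on the log2 scale and gave 4587 higher and 2689 lower genes, so that 63.0% of calls were higher in place of 48.4%.

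**Figure D1:**
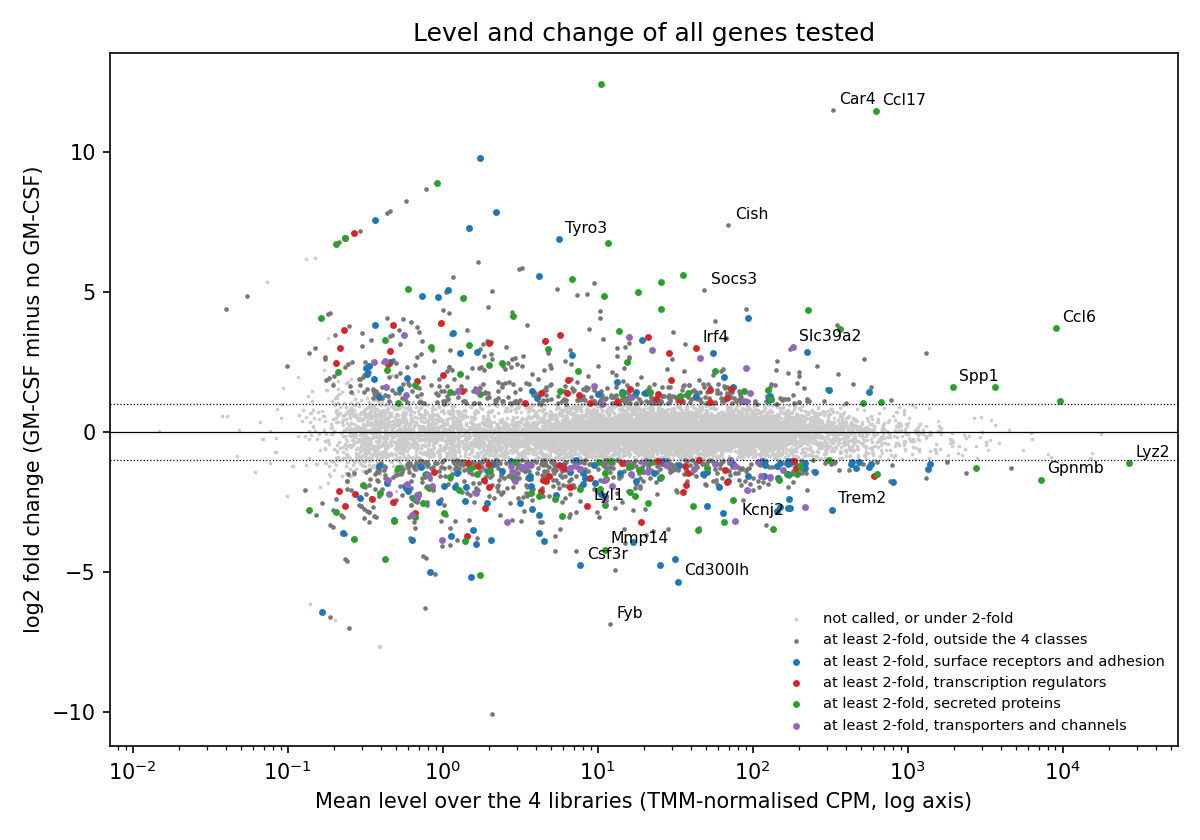
Mean level over the 4 libraries (CPM, log axis) against the log2 change with GM-CSF for the 12340 genes tested, with genes changed at least 2-fold coloured by class. Car4 and Ccl17 stand at 11.48 and 11.46 and Fyb at -6.85, while Ccl6 and Lyz2 lie among the most abundant genes. Fitted changes of genes at or near 0 counts in a group depend on a small added prior count.

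Genes were sorted into 42 families in 4 classes: surface receptors and adhesion molecules, transcription regulators, secreted proteins, and transporters with channels. The lists held 1837 genes of the table, of which 1335 passed the filter on low counts and were tested. In these, 338 rose and 574 fell, and 372 (27.9%) changed at least 2-fold, against 11.7% of all genes tested. Counts of rises and falls in single families are to be read against the 27.5% and 29.3% of all genes tested. Secreted proteins had the highest share changed at least 2-fold, 112 of 255 tested (43.9%, 51 higher and 61 lower). Surface molecules followed with 140 of 422 (33.2%), 42 higher and 98 lower. For transcription regulators the count was 69 of 326 (21.2%), 33 higher and 36 lower. Transporters and channels had 55 of 338 (16.3%), 17 higher and 38 lower. Median log2 changes were -0.30 for surface molecules, -0.10 for transcription regulators, -0.12 for secreted proteins and -0.13 for transporters, beside -0.02 for all genes. Under scaling by total counts, the balance turned for transcription regulators (116 higher, 98 lower) and secreted proteins (94 higher, 91 lower), while falls still led for surface molecules (114 higher, 190 lower) and transporters (99 higher, 115 lower). The families overlap a little and were drawn up from general knowledge of these genes, with earlier results of these data known. Their shares are thus not independent of these data. Genes that could not be tested for low counts are not described by these shares.

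**Figure D2:**
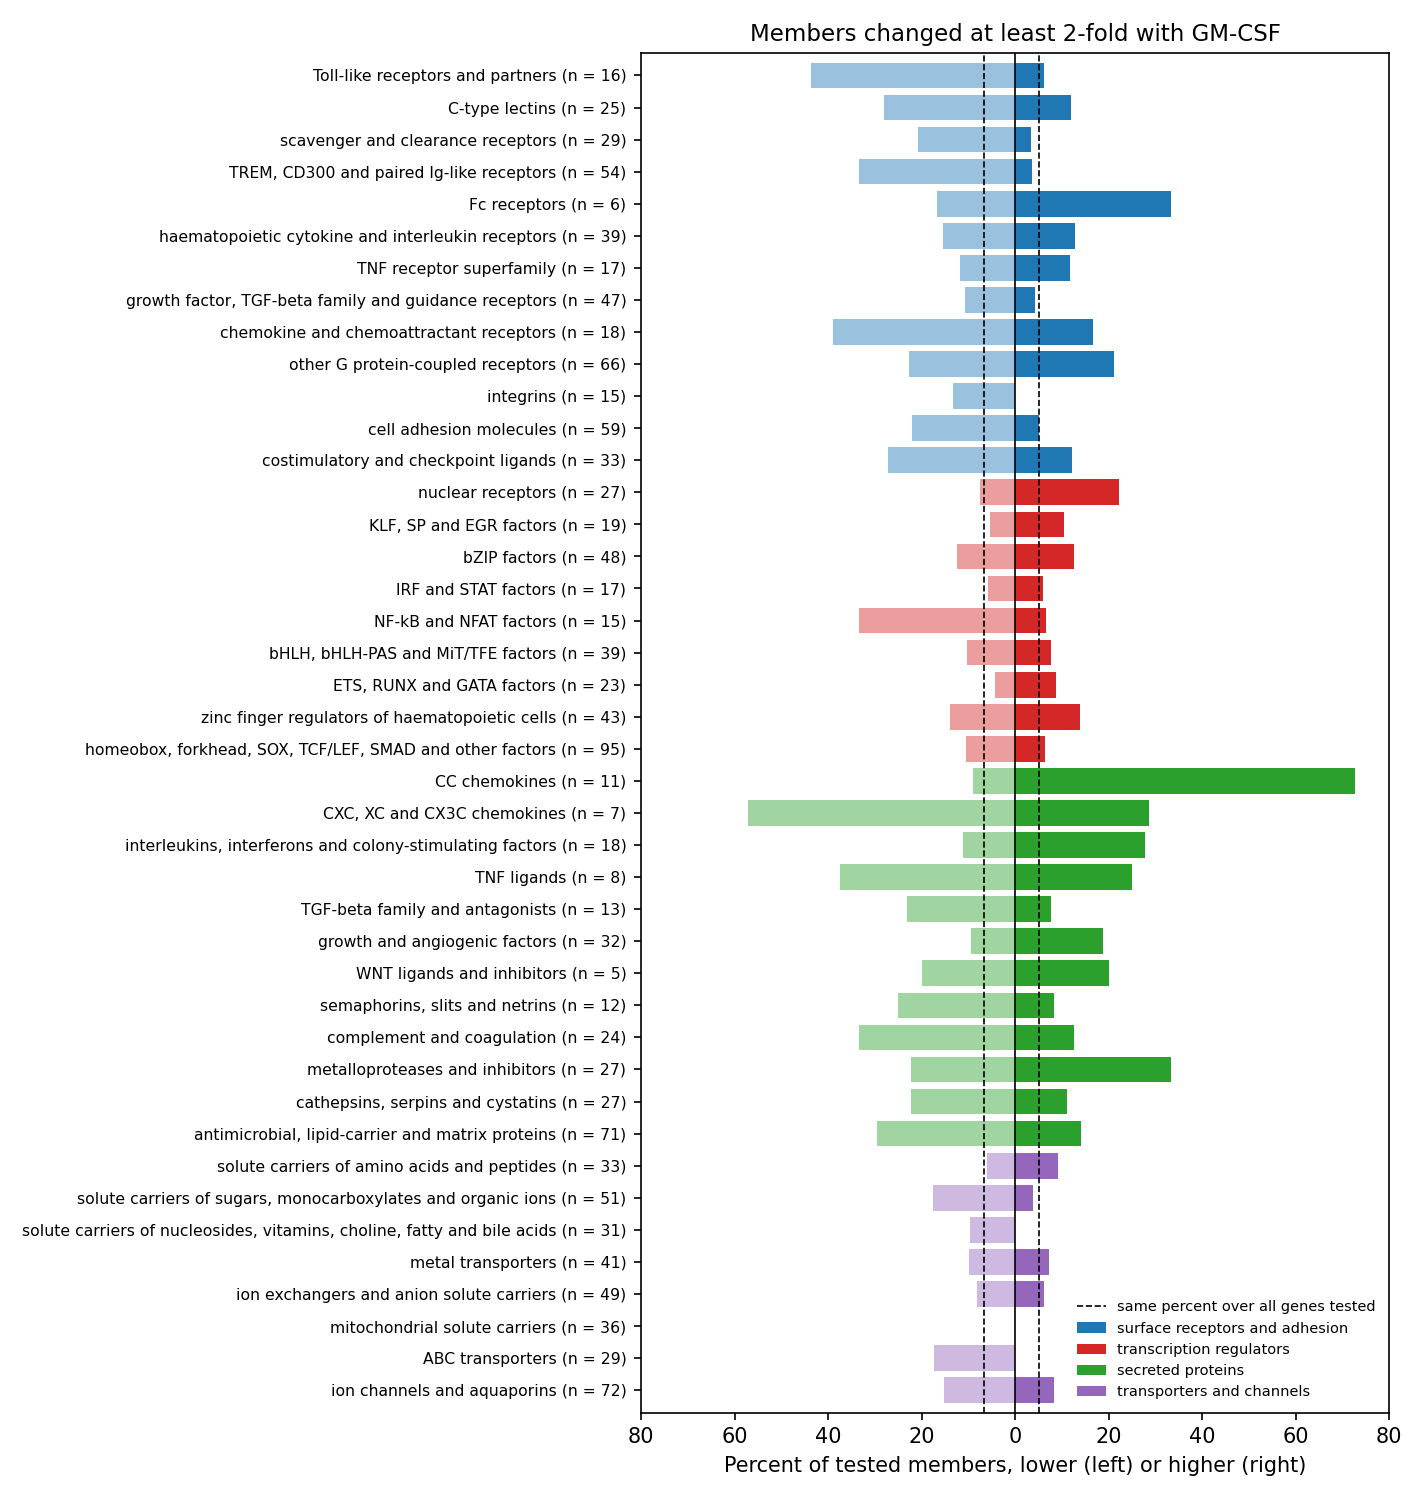
Percent of tested members in each of the 42 families that were called and at least 2-fold lower (left, pale) or higher (right, full colour) with GM-CSF, with dashed lines at 6.67% and 5.05% for all genes tested. CC chemokines reach furthest to the right with 8 of 11 tested members higher, and mitochondrial solute carriers have no bar, with 0 of 36.

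The comparison is marked by 6 genes, with Car4, Ccl17, Cish and Socs3 on the higher side and Fyb and Trem2 on the lower. In RefSeq on GRCm38.p6, the NCBI name of the mm10 build, their genes span chr11:84957754-84966054 (Car4), chr8:94809380-94812038 (Ccl17), chr9:107296659-107302784 (Cish), chr11:117966079-117970336 (Socs3), chr15:6522796-6665608 (Fyb) and chr17:48346401-48352276 (Trem2). Car4, a membrane-anchored carbonic anhydrase on the outer face of the cell, was at 0.215 and 0.238 CPM without GM-CSF and at 661 and 652 CPM with it. That is a log2 change of 11.48 with a standard error (SE) of 0.09 (edgeR adjusted p = 5.11e-13), from a level of a few counts per library to one of the abundant messages. Ccl17, a chemokine that attracts T cells through the receptor CCR4, went from 0.461 and 0.416 CPM to 1273 and 1219 CPM (log2 change 11.46, SE 0.09). Cish was at 0.984 and 0.683 CPM without the cytokine and at 140 and 137 CPM with it (log2 change 7.38, SE 0.12). Both of its values with GM-CSF lie far above both without. Socs3 went from 2.71 and 3.0 CPM to 91.7 and 97.8 CPM (log2 change 5.05, SE 0.09). Socs2 of the same family went from 4.70 and 4.78 to 54.0 and 58.1 CPM (log2 change 3.56, SE 0.08). On the lower side Fyb, an adaptor of integrin activation, went from 23.2 and 24.6 CPM to 0.235 and 0.168 CPM (log2 change -6.85, SE 0.24). Trem2, a lipid-sensing receptor, fell from 577 and 559 CPM to 81.4 and 84.7 CPM (log2 change -2.78, SE 0.04). The groups do not overlap for any of these genes, and neither do they for 9715 of the 12340 genes tested.

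Promoter sequence of the same 6 genes was searched for the palindrome TTCNNNGAA, the core letters bound by STAT dimers, in RefSeq windows of 300 bases, 250 before to 50 after an annotated start, on build GRCm38.p6. Of the 6 genes, 3 hold the letters in their window, namely Cish, Ccl17 and Socs3, and their windows are printed 5′ to 3′ on the gene's strand with the palindrome in capitals. The Cish window, chr9:107296409-107296708 on the plus strand, has a pair of palindromes whose centres lie 4 and 15 bases after the start. The Ccl17 window, chr8:94810203-94810502 on the plus strand, has 1 palindrome centred at -95 relative to its start. The Socs3 window, chr11:117969317-117969616 on the minus strand, has 1 palindrome centred at -150 relative to its start. By the spans given above, the windows of Ccl17, Socs3 and Fyb lie inside the gene. The outermost 5′ ends of these genes were not searched.
Cish: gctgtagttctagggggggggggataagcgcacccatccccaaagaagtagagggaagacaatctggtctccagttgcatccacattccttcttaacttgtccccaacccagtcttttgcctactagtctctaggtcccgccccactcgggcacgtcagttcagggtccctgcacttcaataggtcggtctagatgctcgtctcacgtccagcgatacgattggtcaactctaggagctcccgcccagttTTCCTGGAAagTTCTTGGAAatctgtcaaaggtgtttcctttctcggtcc
Ccl17: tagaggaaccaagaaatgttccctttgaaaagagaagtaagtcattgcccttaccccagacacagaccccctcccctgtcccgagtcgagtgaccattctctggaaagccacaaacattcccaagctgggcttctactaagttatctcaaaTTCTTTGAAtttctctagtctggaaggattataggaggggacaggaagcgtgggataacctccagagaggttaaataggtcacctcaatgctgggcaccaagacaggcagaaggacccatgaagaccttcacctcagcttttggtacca
Socs3: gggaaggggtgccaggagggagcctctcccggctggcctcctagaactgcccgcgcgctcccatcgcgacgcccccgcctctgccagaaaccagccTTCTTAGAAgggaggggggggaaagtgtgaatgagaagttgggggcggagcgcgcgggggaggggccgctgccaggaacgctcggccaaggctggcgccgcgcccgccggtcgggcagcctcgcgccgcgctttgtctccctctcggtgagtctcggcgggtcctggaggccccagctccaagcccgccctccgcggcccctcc
Car4 (window chr11:84957504-84957803, plus strand), Fyb (chr15:6579597-6579896, plus strand) and Trem2 (chr17:48346151-48346450, plus strand) have no such match in their windows, which says only that these letters are not there. Car4, with a larger change than Cish or Socs3, is thus among the genes without the palindrome in this window.

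The same search over every gene tested gives the frame for these matches. Of 12064 windows that belong to 9469 tested genes, 6.80% hold TTCNNNGAA. The share was 9.05% (54 of 597 windows) for genes at least 2-fold higher and 5.89% (47 of 798) for genes at least 2-fold lower. TGANTCA, the site of AP-1 dimers, was in 9.21% of windows of the higher genes, 7.52% of the lower genes and 5.16% of all genes tested. GAAANNGAA, a core of sites for interferon regulatory factors (IRF), was in 7.71% of windows of the higher genes (46 of 597), 80 of 798 windows of the lower genes and 7.12% of all genes tested. Both strands were searched, the motifs share few letters and were counted separately, and a window can hold more than 1. Over all 32851 windows of the reference the shares were 8.30% for TTCNNNGAA, 7.81% for TGANTCA and 8.56% for GAAANNGAA. Windows of 1 gene overlap and are not independent, and no test was run on these shares.

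Among surface molecules, falls outnumbered rises: 96 of 422 tested members rose (22.7%, against 27.5% of all genes) and 212 fell (50.2%, against 29.3%). The largest rises and falls of the class, counting genes that average 5 CPM or more, are taken up by receptor family.

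Tyro3, a receptor tyrosine kinase of the family that recognises dying cells, was at 4 and 2 counts without GM-CSF (0.123 and 0.0594 CPM) and at 10.2 and 12.1 CPM with it (log2 change 6.88, SE 0.25, edgeR adjusted p = 1.25e-08). Its relative Axl, at 1413 and 1362 CPM without and 1284 and 1216 CPM with the cytokine, changed by -0.15 (95% interval -0.24 to -0.06). The Axl call is lost without replicate 2 of the GM-CSF group (edgeR adjusted p = 0.0578), without replicate 1 of the other group (adjusted p = 0.0706) and under scaling by total counts (adjusted p = 0.522). Of 29 scavenger and clearance receptors tested, 22 fell and 4 rose, with a median log2 change of -0.49. Cxcl16, a membrane-bound chemokine that also takes up oxidised lipid, fell from 38.4 and 38.3 CPM to 12.6 and 12.2 CPM (log2 change -1.63, SE 0.07).

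The 54 tested members of the TREM, CD300 and paired immunoglobulin-like receptors leaned downwards, with 35 lower and 7 higher and a median log2 change of -0.76. These receptors pair activating and inhibitory forms, and many activating ones signal through the adaptor Tyrobp (DAP12). Tyrobp itself, one of the 5 surface-class genes with the highest FPKM, fell from 1964 and 1902 CPM to 747 and 790 CPM (log2 change -1.33, SE 0.04). Cd300lh went from 64.3 and 63.6 CPM to 0.968 and 2.25 CPM (log2 change -5.34, SE 0.19). Its change was -4.83 without replicate 1 and -6.04 without replicate 2 of the GM-CSF group. Treml4, which was at 48.7 and 49.3 CPM without GM-CSF, was at 2.08 and 1.54 CPM with it (log2 change -4.74, SE 0.13). Cd300e went from 7.5 and 8.05 CPM to 0.792 and 0.470 CPM (log2 change -3.60, SE 0.24). Cd300lf, an inhibitory member of the CD300 cluster, moved the other way, from 74.6 and 84.1 CPM to 178 and 175 CPM (log2 change 1.15, SE 0.06). CD300 genes lie in a cluster of similar genes, and Cd300lf overlaps Rab37, so the assignment of reads among them is uncertain.

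Receptors for microbial products fell more often than they rose. Of 16 Toll-like receptors and partners tested, 11 fell and 4 rose (median log2 change -0.72). Tlr4, the receptor of lipopolysaccharide, rose from 53.0 and 49.6 CPM to 83.7 and 89.3 CPM (log2 change 0.75, SE 0.06). Cd180, which resembles Tlr4 in its extracellular part, fell from 226 and 218 CPM to 69.0 and 72.7 CPM (log2 change -1.65, SE 0.06). Unc93b1, the chaperone that carries nucleic acid-sensing Toll-like receptors to endosomes and was singled out after its values were seen, fell from 654 and 658 CPM to 273 and 270 CPM (log2 change -1.27, SE 0.04). C-type lectins were divided, with 11 of 25 higher and 10 lower, and with DESeq2 9 higher and 10 lower. Clec4n (dectin-2), a receptor for fungal mannan, rose from 297 and 309 CPM to 813 and 821 CPM (log2 change 1.43, SE 0.04). Clec4d, which forms a receptor with its neighbour Clec4e for mycobacterial glycolipid, fell from 245 and 260 CPM to 36.3 and 34.8 CPM (log2 change -2.82, SE 0.06). Clec4e, singled out after its values were seen, fell from 244 and 274 CPM to 43.9 and 37.4 CPM (log2 change -2.67, SE 0.08). Clec4n, Clec4d and Clec4e lie in 1 cluster of related genes, and 1 of them rose while 2 fell.

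Fc receptors for antibody were few and changed in both directions: of 6 tested, 2 rose and 3 fell. Fcgr2b, the inhibitory receptor for IgG, rose from 24.6 and 28.8 CPM to 100 and 109 CPM (log2 change 1.97, SE 0.08). Fcgr4, an activating receptor, fell from 95.7 and 98.6 CPM to 24.1 and 25.9 CPM (log2 change -1.96, SE 0.06). The shared signalling chain Fcer1g fell from 1351 and 1342 CPM to 916 and 906 CPM (log2 change -0.56, SE 0.04). Fcgr1, the high-affinity activating receptor and singled out after its values were seen, rose from 11.2 and 11.2 CPM to 28.6 and 29.4 CPM (log2 change 1.37, SE 0.08).

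Cytokine receptors included the receptor of GM-CSF itself. Of 39 haematopoietic cytokine and interleukin receptors tested, 9 rose and 20 fell. Il4ra, which receives IL-4 and IL-13, rose from 36.7 and 36.3 CPM to 108 and 117 CPM (log2 change 1.62, SE 0.06). Csf3r, the receptor of the granulocyte factor G-CSF, fell from 14.5 and 15.4 CPM to 0.587 and 0.503 CPM (log2 change -4.76, SE 0.17). Among genes singled out after their values were seen, Csf1r, the receptor of M-CSF, fell from 845 and 751 CPM to 381 and 342 CPM (log2 change -1.14, SE 0.07). Csf2ra, the specific alpha chain, fell from 590 and 578 CPM to 446 and 447 CPM (log2 change -0.39, SE 0.04). Of the shared beta chains, Csf2rb was at 1145 and 1134 CPM without and 1089 and 1156 CPM with GM-CSF, a log2 change of -0.02 with a 95% interval of -0.11 to 0.07. Its close copy Csf2rb2, which serves IL-3, fell from 622 and 571 CPM to 275 and 288 CPM (log2 change -1.08, SE 0.05), and reads that match both genes are uncertain between them.

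Receptors of the tumour necrosis factor (TNF) family gave 3 rises and 7 falls among 17 tested, and 5 rises and 4 falls under scaling by total counts. Tnfrsf13b (TACI), a receptor for the B-cell factors BAFF and APRIL, rose from 3.63 and 3.53 CPM to 35.1 and 34.5 CPM (log2 change 3.28, SE 0.08). The gene overlaps Usp22. Tnfrsf1b, the second TNF receptor, was far more abundant and fell from 1252 and 1224 CPM to 359 and 364 CPM (log2 change -1.78, SE 0.04).

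Chemokine and chemoattractant receptors changed at least 2-fold in 10 of 18 tested, 3 higher and 7 lower. Cxcr2, the receptor of neutrophil-attracting chemokines, fell from 59.8 and 60.3 CPM to 2.61 and 2.58 CPM (log2 change -4.53, SE 0.09). C5ar1, the receptor of complement fragment C5a, went from 9.16 and 7.81 CPM to 0.616 and 0.503 CPM (log2 change -3.90, SE 0.21). Csf3r and Cxcr2 are also markers of neutrophils, and the neutrophil marker list, with 6 of 13 genes in the table, summed to 111 and 115 CPM without and 61.3 and 63.5 CPM with GM-CSF. In that list Camp had 0 counts in all 4 libraries and Ltf was under 1 CPM in each, while Mmp8 rose from 20.4 and 21.6 CPM to 53.8 and 56.6 CPM. The 4 tested genes of the list each changed at least 2-fold, with a median log2 change of -3.28. Of these only Mmp8 was higher, and 3 were lower, Csf3r and Cxcr2 among them. The part of neutrophils in the falls of Csf3r and Cxcr2 was not tested.

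Of 66 other G protein-coupled receptors tested, 23 rose and 28 fell, and 29 changed at least 2-fold. Niacr1 (Hcar2), the receptor of ketone bodies and niacin, rose from 50.7 and 58.9 CPM to 396 and 387 CPM (log2 change 2.84, SE 0.06). Adora2b, an adenosine receptor that raises cyclic AMP, rose from 1.97 and 1.57 CPM to 12.5 and 11.3 CPM (log2 change 2.75, SE 0.19). Gpr35, a receptor for tryptophan metabolites, rose from 5.78 and 6.12 CPM to 18.0 and 23.1 CPM (log2 change 1.78, SE 0.13). Emr1, which encodes the macrophage antigen F4/80, fell from 299 and 279 CPM to 54.1 and 54.7 CPM (log2 change -2.41, SE 0.05). Ptgir, the prostacyclin receptor, singled out after its values were seen, rose from 167 and 159 CPM to 455 and 459 CPM (log2 change 1.49, SE 0.04). The median log2 change of the family was -0.19.

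Of 47 receptors for growth factors, TGF-beta family members and guidance cues, 8 rose (17.0%, against 27.5% of all genes) and 20 fell (42.6%, against 29.3%). Notch1, which is cleaved on contact with ligands of neighbouring cells, rose from 25.4 and 20.9 CPM to 43.6 and 43.4 CPM (log2 change 0.91, SE 0.11). Plxna2, a semaphorin receptor, fell from 15.9 and 14 CPM to 4.49 and 4.03 CPM (log2 change -1.81, SE 0.17).

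Among adhesion molecules the lean was downwards for integrins and depended on scaling for the others. Of 15 integrin subunits tested, 8 fell and 2 rose, with a median log2 change of -0.60. Itgb5, which pairs with the alpha-v subunit to bind vitronectin, fell from 316 and 292 CPM to 45.5 and 47.1 CPM (log2 change -2.71, SE 0.06). Itga6, a laminin receptor subunit, rose from 6.09 and 6.24 CPM to 10.4 and 10.8 CPM (log2 change 0.78, SE 0.11). Cell adhesion molecules outside the integrins numbered 12 higher and 21 lower of 59, and 20 higher and 21 lower under scaling by total counts. Cdh1 (E-cadherin), which joins epithelial cells and is also made by some alveolar macrophages, rose from 16.2 and 11.5 CPM to 95.4 and 100 CPM (log2 change 2.83, SE 0.12). Cdh1 is one of 14 lung epithelium markers in the table, whose sum was 125 and 114 CPM without and 171 and 178 CPM with GM-CSF. Of the 9 tested, only Cdh1 rose and 5 fell, 3 of them at least 2-fold, with a median log2 change of -0.75. The higher sum is thus not a rise of the list as a whole. In that list Sftpc and Sftpb were under 1 CPM in all 4 libraries and Epcam fell from 1.44 and 2.17 CPM to 0.557 and 0.772 CPM. That call of Epcam is lost without replicate 1 of the GM-CSF group (edgeR adjusted p = 0.0723) and without replicate 2 of the other group (adjusted p = 0.0518). The part of epithelial cells in the rise of Cdh1 was not tested. Cd37, a tetraspanin, fell from 112 and 116 CPM to 13.6 and 17.2 CPM (log2 change -2.90, SE 0.09).

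Ligands of T-cell costimulation and antigen presentation fell in 19 of 33 tested and rose in 6. Tnfsf18, the ligand of GITR, went from 0.123 and 0.208 CPM to 7.39 and 8.93 CPM (log2 change 5.58, SE 0.27). Cd80, which costimulates T cells through CD28, rose from 7.96 and 7.46 CPM to 19.6 and 22.2 CPM (log2 change 1.43, SE 0.12). Tnfsf15, a TNF ligand that binds the receptor DR3, went from 5.53 and 5.20 CPM to 0.968 and 0.873 CPM (log2 change -2.53, SE 0.21). H2-M2, a non-classical class I gene, fell from 30.6 and 32.7 CPM to 2.14 and 2.05 CPM (log2 change -3.91, SE 0.16). B2m, the light chain of class I molecules, fell from 2588 and 2718 CPM to 1580 and 1591 CPM (log2 change -0.74, SE 0.05). Class I genes resemble one another closely, and reads may be split among them.

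**Figure D3:**
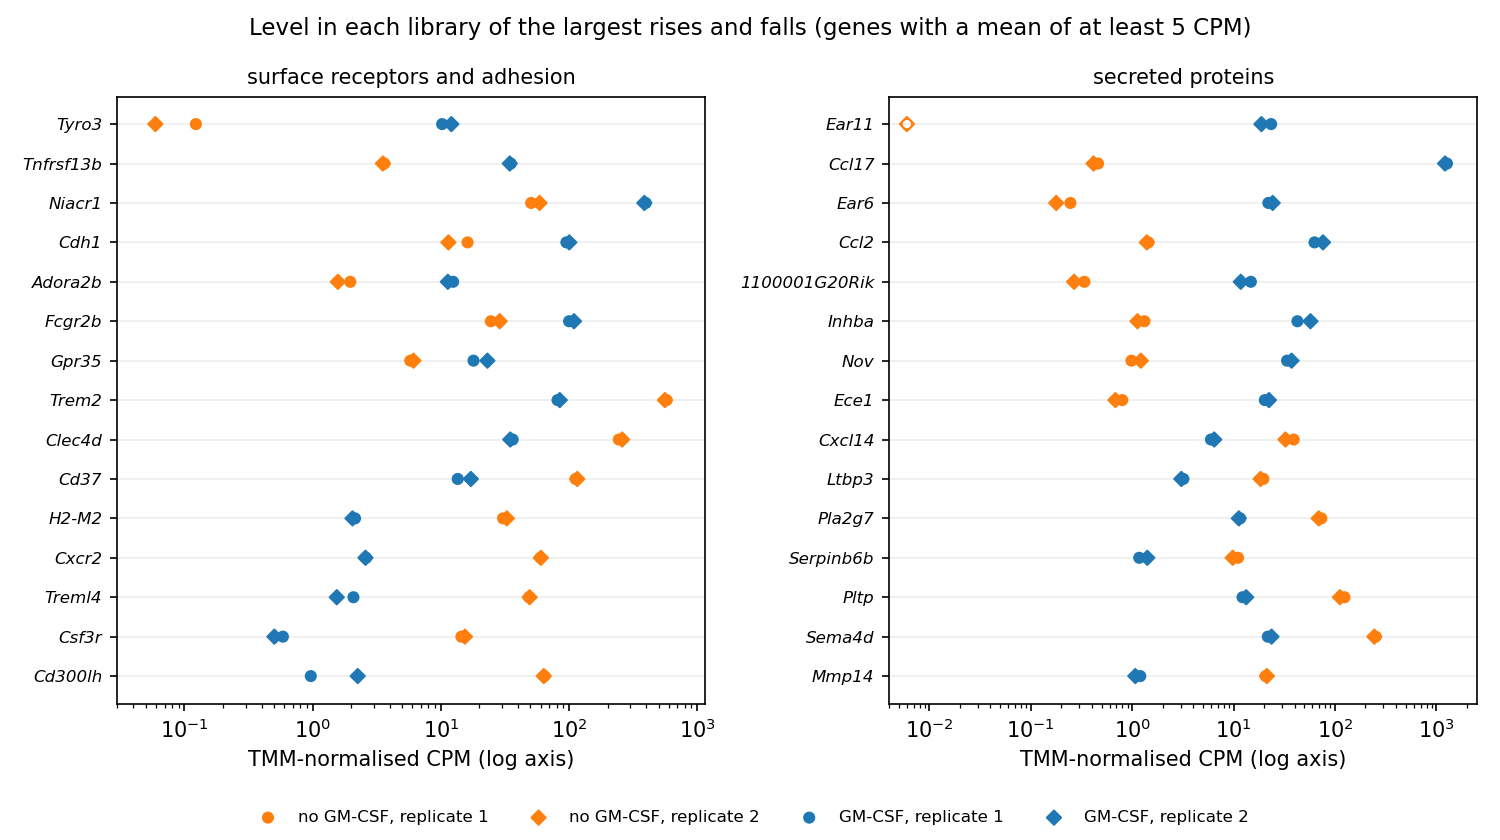
CPM in each of the 4 libraries (log axis; circles replicate 1, diamonds replicate 2) for the largest rises and falls of surface molecules (left) and secreted proteins (right), for genes that average 5 CPM or more. Only genes past the threshold and without overlap between the groups were eligible. Blue GM-CSF points and orange points without it are thus apart by that rule. The open symbols of Ear11 mark 0 counts and are set at the left edge.

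Transcription regulators had rises and falls of at least 2-fold in similar numbers. Of 326 tested, 91 rose (27.9%, against 27.5% of all genes) and 131 fell (40.2%, against 29.3%). Of the 5 regulators with the highest FPKM, 4 changed by less than 0.5 on the log2 scale. The PU.1 gene Sfpi1 fell from 720 and 696 CPM to 555 and 552 CPM (log2 change -0.35, SE 0.04) and Cebpb rose from 412 and 388 CPM to 520 and 528 CPM (log2 change 0.39, SE 0.05). Id2, an inhibitor of basic helix-loop-helix factors, fell by 0.41 on the log2 scale (SE 0.04), and Bhlhe40, a repressor tied to macrophage self-renewal, rose by 0.43 (SE 0.04). The fifth of these, Creg1, a secreted glycoprotein of endosomes that was first described as a repressor of E1A-driven transcription and is counted here with the regulators, fell from 924 and 878 CPM to 309 and 301 CPM (log2 change -1.56, SE 0.05).

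Nuclear receptors, which bind small lipophilic ligands, held several of the large rises, with 8 of 27 tested higher and 12 lower and a median log2 change of -0.22. Vdr, the vitamin D receptor, rose from 3.90 and 3.48 CPM to 35.4 and 42.1 CPM (log2 change 3.39, SE 0.13). Rara, a retinoic acid receptor, rose from 7.32 and 7.13 CPM to 50.8 and 49.98 CPM (log2 change 2.80, SE 0.07). Rarg, its relative and singled out after its values were seen, rose from 3.60 and 3.45 CPM to 8.71 and 9.60 CPM (log2 change 1.38, SE 0.12). Nr1h3, the liver X receptor alpha that senses oxysterols, fell from 105 and 107 CPM to 33.1 and 27.8 CPM (log2 change -1.80, SE 0.09). Nr1h3 overlaps the gene Acp2. Vdr, Rara and Rarg thus rose while Nr1h3 fell, and a contrast by type of ligand was not tested.

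Irf4 went from 9.07 and 10.1 CPM to 72.8 and 81.0 CPM (log2 change 3.0, SE 0.09, edgeR adjusted p = 2.38e-09), the largest rise among 17 IRF and STAT factors tested, of which 5 rose and 7 fell (7 and 6 under scaling by total counts). Batf3, a bZIP partner of IRF proteins, rose from 3.23 and 2.32 CPM to 10.1 and 10.002 CPM (log2 change 1.86, SE 0.15). Zbtb46, a zinc finger factor of classical dendritic cells, went from 0.891 and 0.861 CPM to 8.04 and 8.46 CPM (log2 change 3.23, SE 0.23). Zbtb46 overlaps Zgpat and Lime1. The dendritic cell marker list, with 12 of 14 genes in the table and 8 tested, had 4 genes higher and 1 lower and summed to 127 and 128 CPM without and 172 and 185 CPM with GM-CSF. In it Irf8 fell from 108 and 108 CPM to 70.3 and 75.3 CPM (log2 change -0.57, SE 0.05), and Ccr7, Kit, Cd209a, Itgae, Flt3 and Xcr1 were under 1 CPM in all 4 libraries. The part of such cells in the rises was not tested.

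The bZIP family as a whole was balanced, with 18 of 48 higher and 16 lower, and 15 higher and 17 lower without replicate 2 of the group without GM-CSF. Of 22 markers of interstitial macrophages and monocytes, 18 were in the table and 13 were tested. In that list 10 genes fell and 1, the protease Mmp12, rose. Mmp12 made up most of the sum, which went from 7070 and 7094 CPM to 12529 and 14205 CPM, while Cx3cr1 was at 1.23 and 1.99 CPM without GM-CSF and 0.0587 and 0.0336 CPM with it. Lyl1, a basic helix-loop-helix factor of blood progenitors, fell from 14.5 and 15.1 CPM to 2.23 and 2.52 CPM (log2 change -2.64, SE 0.12), and its gene overlaps Nfix.

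The KLF factors Klf9 and Klf4 rose and Klf2 fell, all of them zinc finger proteins that bind GC-rich promoters. Klf9 went from 13.9 and 11.9 CPM to 44.2 and 49.6 CPM (log2 change 1.87, SE 0.09). Klf4 rose from 37.7 and 37.6 CPM to 110 and 105 CPM (log2 change 1.52, SE 0.05). Klf2 fell from 9.04 and 8.23 CPM to 3.81 and 3.29 CPM (log2 change -1.28, SE 0.13). In this family of 19 tested, 8 rose and 3 fell.

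NF-kB and NFAT factors fell in 12 of 15 tested and rose in 1, with a median log2 change of -0.39. Nfkbid, an inhibitor-like cofactor of NF-kB, fell from 54.4 and 61.0 CPM to 14.3 and 11.8 CPM (log2 change -2.14, SE 0.09). Relb and Nfkbia, singled out after their values were seen, fell by 1.46 (SE 0.06) and by 1.34 (SE 0.06) on the log2 scale. Both genes are known targets as well as members of the pathway. Irf1 fell from 77.1 and 77.6 CPM to 51.4 and 47.9 CPM (log2 change -0.64, SE 0.05). The kinase Ikbke, outside the regulator lists, fell from 76.4 and 88.7 CPM to 7.51 and 7.08 CPM (log2 change -3.50, SE 0.09).

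Of 43 zinc finger regulators of blood cells 14 rose (32.6%, against 27.5% of all genes) and 16 fell (37.2%, against 29.3%), and under scaling by total counts 16 rose and 12 fell. Bcl6, a repressor known from germinal centre B cells, went from 59.0 and 57.4 CPM to 16.3 and 15.2 CPM (log2 change -1.88, SE 0.07). Prdm1 (BLIMP-1), the regulator of plasma cell differentiation, went from 11.7 and 9.5 CPM to 2.35 and 3.12 CPM (log2 change -1.96, SE 0.16). Zbtb20 fell from 17.8 and 9.06 CPM to 4.49 and 4.16 CPM (log2 change -1.63, SE 0.28), with its 2 libraries without GM-CSF far apart, and its change was -1.06 without replicate 1 and -2.04 without replicate 2 of that group. Ovol2, a zinc finger factor known from epithelia, rose from 0.768 and 1.13 CPM to 10.2 and 10.7 CPM (log2 change 3.45, SE 0.16). Other rises were those of the corepressor Cbfa2t3 (log2 change 1.52, SE 0.10) and of the MiT/TFE factor Tfec (1.22, SE 0.05). The coactivator Ppargc1b also rose (log2 change 1.33, SE 0.13). Tsc22d1, a leucine zipper factor, fell by 1.21 on the log2 scale (SE 0.07), and Etv3, an ETS-family repressor, fell by 0.76 (SE 0.05). Of 39 helix-loop-helix and MiT/TFE factors 10 rose and 18 fell, and of 23 ETS, RUNX and GATA factors 7 rose and 9 fell; under scaling by total counts rises led in both, with 14 against 10 and 12 against 7.

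**Figure D4:**
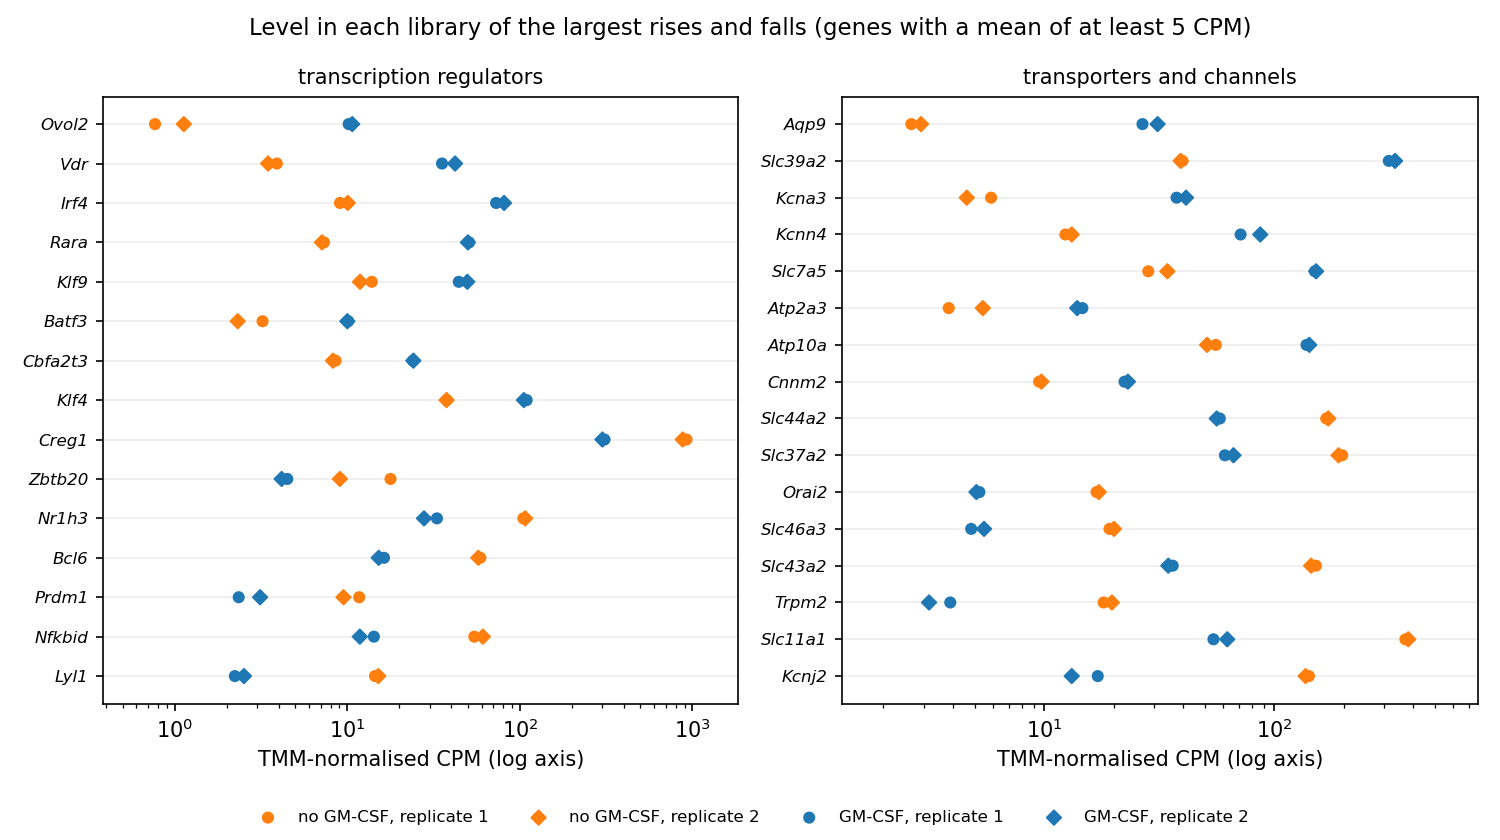
CPM in each of the 4 libraries (log axis; circles replicate 1, diamonds replicate 2) for the largest rises and falls of transcription regulators (left) and of transporters and channels (right), for genes that average 5 CPM or more. Vdr, Irf4 and Rara on the left and Aqp9 and Slc39a2 on the right lie higher with GM-CSF (blue), and Lyl1 and Kcnj2 lie lower.

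Secreted proteins changed in both directions, in a class that also holds membrane-anchored products such as Mmp14. Of 255 tested, 79 rose (31.0%, against 27.5% of all genes) and 97 fell (38.0%, against 29.3%). Lyz2, the lysozyme that digests bacterial walls, had a mean of 32510 FPKM without GM-CSF and 15214 with it. Ccl6 had a mean of 1145 FPKM without and 15024 with the cytokine. Lyz2 fell from 36610 and 36561 CPM to 17096 and 17047 CPM (log2 change -1.10, SE 0.04). Ccl6, a chemokine of myeloid cells, rose from 1230 and 1334 CPM to 16282 and 17163 CPM (log2 change 3.71, SE 0.05). In the libraries with GM-CSF, Ccl6 and Lyz2 RNA were thus of like abundance per length.

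CC chemokines, which attract monocytes, T cells and eosinophils, rose in 8 of 11 tested and fell in 1, with a median log2 change of 3.66. Ccl2, the ligand of CCR2 on monocytes, rose from 1.44 and 1.4 CPM to 62.9 and 76.2 CPM (log2 change 5.61, SE 0.14). Ccl3 and Ccl4, which attract monocytes and lymphocytes, rose by 3.66 (SE 0.05) and by 4.38 (SE 0.12) and were singled out after their values were seen. Ccl22, which shares its receptor with Ccl17, moved the other way, from 21.2 and 23.5 CPM to 9.27 and 9.57 CPM (log2 change -1.25, SE 0.09). Of 7 CXC-type chemokines tested, 5 fell and 2 rose. Cxcl14 fell from 39.2 and 32.5 CPM to 5.98 and 6.44 CPM (log2 change -2.53, SE 0.11).

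Growth factors and cytokines gave single large changes. Inhba, the activin A subunit, rose from 1.32 and 1.13 CPM to 42.6 and 57.3 CPM (log2 change 5.34, SE 0.18). Nov (CCN3), a matrix-associated signalling protein, rose from 0.984 and 1.22 CPM to 33.7 and 37.3 CPM (log2 change 5.0, SE 0.11). Csf1, which encodes M-CSF, the ligand of Csf1r, rose from 2.37 and 3.03 CPM to 11.3 and 13.1 CPM (log2 change 2.17, SE 0.15). Ltbp3, which tethers latent TGF-beta, fell from 19.7 and 18.5 CPM to 3.20 and 3.05 CPM (log2 change -2.61, SE 0.12), and its gene overlaps another gene. Ebi3, a subunit of IL-27 and IL-35, fell from 26.4 and 26.7 CPM to 6.40 and 5.57 CPM (log2 change -2.15, SE 0.09). Tnf fell from 68.0 and 76.3 CPM to 30.1 and 29.0 CPM (log2 change -1.29, SE 0.07). Igf1 fell from 195 and 193 CPM to 99.9 and 96.6 CPM (log2 change -0.98, SE 0.05). Sema4d, a semaphorin that acts on plexin B receptors, fell from 252 and 245 CPM to 21.8 and 23.7 CPM (log2 change -3.45, SE 0.06). Hbegf, a ligand of the EGF receptor singled out after its values were seen, rose by 3.59 on the log2 scale (SE 0.14).

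Proteases and their inhibitors changed in both directions. Of 27 metalloproteases and inhibitors tested, 12 rose and 7 fell, and 15 changed at least 2-fold. Ece1, which cleaves endothelin precursors, went from 0.799 and 0.683 CPM to 20.3 and 22.4 CPM (log2 change 4.84, SE 0.16). Mmp12, the macrophage elastase and among the 5 secreted products with the highest FPKM, rose from 6006 and 6087 CPM to 12278 and 13938 CPM (log2 change 1.12, SE 0.05). Mmp14, a membrane-anchored collagenase, fell from 20.7 and 21.3 CPM to 1.2 and 1.07 CPM (log2 change -4.20, SE 0.13). Of 27 cathepsins, serpins, cystatins and related inhibitors, 17 fell and 7 rose. The lysosomal protease Ctsd fell from 20162 and 20324 CPM to 10250 and 10458 CPM (log2 change -0.97, SE 0.03). Serpinb6b fell from 11.1 and 9.80 CPM to 1.17 and 1.41 CPM (log2 change -3.02, SE 0.17). The WAP-domain gene 1100001G20Rik (Wfdc21) rose from 0.338 and 0.267 CPM to 14.8 and 11.8 CPM (log2 change 5.45, SE 0.22).

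Complement and lipid-carrying proteins fell more often than they rose. Of 24 complement and coagulation genes tested, 13 fell and 5 rose. Cfp (properdin), which stabilises the alternative pathway convertase, rose from 63.7 and 67.6 CPM to 187 and 187 CPM (log2 change 1.51, SE 0.05). Pltp, which transfers phospholipid between lipoproteins, fell from 124 and 112 CPM to 12.3 and 13.3 CPM (log2 change -3.21, SE 0.08), and its gene overlaps Ctsa. Pla2g7, which breaks down platelet-activating factor, fell from 73.4 and 69.2 CPM to 11.6 and 11.3 CPM (log2 change -2.64, SE 0.07). Of 71 antimicrobial, lipid-carrier and matrix proteins 19 rose and 30 fell, 31 of them in all by at least 2-fold. Among those singled out after their values were seen, Gpnmb, a glycoprotein of lysosome-rich macrophages, fell from 10906 and 11223 CPM to 3325 and 3472 CPM (log2 change -1.70, SE 0.03). Spp1 (osteopontin) rose from 949 and 1005 CPM to 2699 and 3175 CPM (log2 change 1.59, SE 0.07). Chi3l3, a chitinase-like lectin, rose from 1809 and 1818 CPM to 5534 and 5549 CPM (log2 change 1.61, SE 0.03). Ear11 and Ear6 belong to the eosinophil-associated ribonucleases, a cluster of near-identical genes whose reads may be split among copies. Ear11 had 0 counts in both libraries without GM-CSF and stood at 23.5 and 18.8 CPM with it. Setting the empty libraries to 3 counts each makes this at least 233-fold higher. Ear6 rose from 8 and 6 counts (0.246 and 0.178 CPM) to 22 and 24.3 CPM (log2 change 6.75, SE 0.16).

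Transporters and channels had the smallest share of large changes among the 4 classes, with 74 of 338 tested higher (21.9%, against 27.5% of all genes) and 137 lower (40.5%, against 29.3%). Among channels and aquaporins 18 of 72 rose and 28 fell. Aqp9, a channel for glycerol and water, rose from 2.64 and 2.91 CPM to 26.7 and 31.1 CPM (log2 change 3.37, SE 0.11). Potassium channels changed in both directions. Kcna3, a voltage-gated channel, rose from 5.87 and 4.60 CPM to 37.6 and 41.3 CPM (log2 change 2.91, SE 0.12). Kcnn4, a calcium-activated channel, rose from 12.4 and 13.2 CPM to 71.3 and 86.8 CPM (log2 change 2.63, SE 0.10). Kcnj2, an inward rectifier, fell from 141 and 137 CPM to 17.1 and 13.2 CPM (log2 change -3.19, SE 0.09). Hvcn1, the proton channel that balances charge in the oxidative burst, fell from 1075 and 1043 CPM to 582 and 559 CPM (log2 change -0.89, SE 0.04). Genes of calcium entry and storage also changed. Trpm2, a calcium-permeable channel opened by ADP-ribose, fell from 18.1 and 19.7 CPM to 3.90 and 3.16 CPM (log2 change -2.41, SE 0.12). Orai2, a subunit of store-operated channels, fell from 16.9 and 17.3 CPM to 5.22 and 5.07 CPM (log2 change -1.73, SE 0.11). Atp2a3, a calcium pump of the endoplasmic reticulum, rose from 3.84 and 5.41 CPM to 14.6 and 13.9 CPM (log2 change 1.62, SE 0.16).

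Metal transporters gave 10 rises and 19 falls among 41 tested. Slc39a2 (ZIP2), which brings zinc into the cell, rose from 39.9 and 39.1 CPM to 314 and 335 CPM (log2 change 3.04, SE 0.05). Slc11a1 (NRAMP1), which removes iron and manganese from phagosomes, fell from 371 and 382 CPM to 54.4 and 62.4 CPM (log2 change -2.69, SE 0.06). Cnnm2, tied to magnesium transport, rose from 9.5 and 9.71 CPM to 22.3 and 23.1 CPM (log2 change 1.24, SE 0.07). A zinc importer and a phagosomal metal exporter are thus the extremes of this family.

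Amino acid and peptide carriers were divided, with 9 of 33 tested higher and 12 lower (12 and 10 under scaling by total counts). Slc7a5 (LAT1), an exchanger of large neutral amino acids, rose from 28.3 and 34.3 CPM to 150 and 152 CPM (log2 change 2.27, SE 0.08). Slc43a2 (LAT4), a uniporter of overlapping substrates, fell from 152 and 145 CPM to 36.1 and 34.6 CPM (log2 change -2.06, SE 0.05). Sugar, monocarboxylate and organic ion carriers gave 11 rises and 25 falls among 51. Slc2a1 (GLUT1), the glucose carrier, rose from 56.2 and 55.9 CPM to 94.3 and 100 CPM (log2 change 0.79, SE 0.05). Slc37a2, a sugar-phosphate exchanger, fell from 197 and 190 CPM to 61.0 and 66.4 CPM (log2 change -1.61, SE 0.06), and Slc46a3, a lysosomal carrier, fell by 1.94 on the log2 scale (SE 0.11). Slc44a2, a choline transporter-like protein, fell from 168 and 171 CPM to 57.9 and 56.2 CPM (log2 change -1.57, SE 0.05). Of 29 ABC transporters 17 fell and 2 rose (median -0.41), among them Abcd2, a carrier of fatty acyl-CoA into peroxisomes, with a log2 change of 0.82 (SE 0.05). None of the 36 mitochondrial carriers tested changed at least 2-fold, 5 rose and 9 fell, and their median was 0.00 on the log2 scale, with 10 rises and 8 falls under scaling by total counts. Among them Slc25a5, the ADP/ATP carrier, rose from 537 and 550 CPM to 757 and 739 CPM (log2 change 0.46, SE 0.04), and Slc25a1, the citrate carrier, fell from 80.7 and 79.6 CPM to 45.7 and 45.8 CPM (log2 change -0.81, SE 0.06). For Slc8a1, a sodium-calcium exchanger, the measures disagree: its counts fell with a log2 change of -1.41 (SE 0.09), and limma on the deposited FPKM gave -0.25 (adjusted p = 0.373).

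A stricter description asks which genes went from near silence to clear expression. Genes were called switched on when below 1 CPM in both libraries without GM-CSF and at 5 CPM or more in both with it, and switched off in the reverse case. By this measure of level, which carries no test, 21 genes (0.17% of those tested) were on and 12 (0.0972%) were off. In the 4 classes 8 were on. Tyro3 and Tnfsf18 are of the surface class, and Zbtb46 is a regulator. Ear11, Ccl17, Ear6, 1100001G20Rik and Ece1 are of the secreted class, where Tnfsf18 is also counted. The 4 that were off are Csf3r, Cd300e, C5ar1 and Tnfsf15. No transporter or channel was switched in either direction. Outside the classes and apart from Car4 and Cish, the genes on were AA467197, Clec2l, Fam181b, Gabbr1, Gm13461, Klrg2, Ocstamp, Scd4, Sphk1, Synpo and Tgm1. Those off were Ceacam19, Eps8l1, Fabp7, Fyb, Irg1, Osgin1, Slfn5 and Zc3h12d. Those outside the classes were named because their levels met the rule. Gm13461, a predicted gene, had 0 and 0.208 CPM without GM-CSF and 6.40 and 5.91 CPM with it. Ocstamp, a membrane protein of osteoclast fusion, went from 0.338 and 0.267 CPM to 9.01 and 12.3 CPM (log2 change 5.12, SE 0.34). Sphk1, the kinase that makes sphingosine 1-phosphate, went from 0.861 and 0.832 CPM to 7.72 and 8.59 CPM (log2 change 3.26, SE 0.19). Gabbr1, a subunit of the GABA-B receptor that the surface lists do not hold, went from 0.861 and 0.891 CPM to 5.81 and 5.67 CPM (log2 change 2.71, SE 0.17). Irg1 (Acod1), which makes itaconate, went from 24.4 and 25.7 CPM to 0.851 and 0.806 CPM (log2 change -4.91, SE 0.15). Slfn5, an interferon-inducible gene, went from 10.6 and 9.59 CPM to 0.557 and 0.503 CPM (log2 change -4.24, SE 0.18).

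Promoter windows of these switched genes were searched for the same letters. Over all genes tested, the shares were 6.80% for TTCNNNGAA, 5.16% for TGANTCA and 7.12% for GAAANNGAA. Of 25 windows of 17 genes switched on, 5 had TTCNNNGAA, 4 had TGANTCA and 6 had GAAANNGAA. Of 14 windows of 12 genes switched off, 2 had TTCNNNGAA, 1 had TGANTCA and 7 had GAAANNGAA. Both sets are small, and several windows belong to the same gene.

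Outside the 4 classes the largest changes also included enzymes and structural genes. Eps8, an actin-capping and bundling protein, rose from 47.9 and 45.5 CPM to 632 and 683 CPM (log2 change 3.82, SE 0.06). Spint1, a membrane-bound inhibitor of serine proteases, rose from 8.51 and 8.14 CPM to 171 and 177 CPM (log2 change 4.38, SE 0.07). Ccdc80, a matrix-binding protein, rose from 7.10 and 6.65 CPM to 107 and 108 CPM (log2 change 3.97, SE 0.06). AA467197, a small mitochondrial protein gene, went from 0.277 and 0.653 CPM to 16.4 and 20.8 CPM (log2 change 5.30, SE 0.24). Its change was 4.82 without replicate 1 and 6.05 without replicate 2 of the group without GM-CSF. Hs3st3b1, a heparan sulfate sulfotransferase, rose from 1.17 and 1.16 CPM to 18.7 and 20.1 CPM (log2 change 4.06, SE 0.13). Ptrf (cavin-1), which shapes caveolae, rose from 1.05 and 0.950 CPM to 20.1 and 19.5 CPM (log2 change 4.31, SE 0.14). Hpgds, the prostaglandin D synthase of blood cells, fell from 50.5 and 53.4 CPM to 4.66 and 4.77 CPM (log2 change -3.46, SE 0.08). Lpcat2, which makes platelet-activating factor, fell from 28.1 and 27.9 CPM to 1.91 and 1.64 CPM (log2 change -3.97, SE 0.11). Fabp7, a fatty acid-binding protein, fell from 13.9 and 13.6 CPM to 0.763 and 0.671 CPM (log2 change -4.25, SE 0.20). Ms4a7, a membrane protein of tissue macrophages, fell by 3.46 on the log2 scale (SE 0.10). Lpcat2 and the plasma hydrolase Pla2g7, which make and degrade the same lipid mediator, were thus both lower with GM-CSF. Of 25 sulfo-, sialyl- and fucosyltransferases 5 rose and 12 fell, including St3gal5 with a log2 change of -2.01 (SE 0.12). Of 8 carbonic anhydrases tested, Car4 included, 4 rose and 1, Car9, fell (log2 change -0.94, SE 0.14).

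Some abundant genes of each class moved little, with the 95% interval of the log2 change inside 0.25 of 0 on both sides. Among surface molecules Itgax had an interval of -0.12 to 0.13 and the inhibitory receptor Lilrb4 one of -0.20 to 0.02. The regulator Nfe2l1, which controls proteasome genes, had an interval of -0.08 to 0.12. The galectins Lgals3 and Lgals1 had intervals of -0.12 to 0.04 and -0.04 to 0.19, and progranulin, Grn, one of -0.04 to 0.11. For the chloride channel protein Clic4 the interval was -0.16 to 0.03. Under scaling by total counts, changes of Nfe2l1, Grn and Lgals1 passed the threshold, at log2 changes of 0.14, 0.16 and 0.20.

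The 2 genes of eosinophils, mast cells and basophils in the table summed to under 1 CPM in each library. In the list for T, B and NK cells, 10 of 12 genes were under 1 CPM in all 4 libraries, and Cd2 at 192, 193, 199 and 192 CPM made up nearly the whole sum. For endothelium and stroma the sum went from 206 and 177 CPM to 95.8 and 106 CPM, almost all of it Vwf, while 7 of 10 genes were under 1 CPM in all 4 libraries. The list for erythroid cells and platelets went from 0.799 and 0.475 CPM to 6.28 and 5.34 CPM through the chemokine Pf4. The part of other cells in the changes above was not tested beyond these levels.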

How the data were processed

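RNA sequencing libraries of mouse alveolar macrophages on day 2 were read from the authors' deposited table, which holds raw counts per gene and FPKM values for 6 libraries. Per the submitters' processing notes, the tools named are STAR 2.6.0a, featureCounts, Subread 1.4.6 and DESeq2 1.28.1, and the build is mm10. Gene annotation: not given in the sources used here, and likewise the strand setting, so reads of overlapping and antisense genes cannot be told apart. The deposited counts were tested as they are, and the deposited FPKM served to rank genes by level and as an alternative with limma on log2(FPKM + 1) and log2(FPKM + 0.1).

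Genes were filtered with filterByExpr (minimum count 10), which left 12340 of 16840, scaled by TMM and fitted with edgeR 4.0.16 in R 4.3.3 on all 6 libraries as 3 groups of 2, so that the groups share 1 estimate of the spread. The quasi-likelihood test compared GM-CSF with no GM-CSF; p-values were adjusted over the 12340 genes by the Benjamini-Hochberg method, and the threshold was 0.05. The biological coefficient of variation was 0.0501 and the median SE 0.08 on the log2 scale. Both libraries of a group differed by more than sampling noise. Libraries with the same replicate number share only that number, and no batch is named.

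Members, families, marker lists and naming rules were chosen with earlier results of these data known. Named were, among genes past the threshold with a mean of at least 5 CPM and no overlap between groups, the 8 largest rises and falls of each class, the largest rise and fall of each family, and the 15 largest rises and falls outside the classes. Class members that were switched, the 5 highest by FPKM and the 3 most abundant with an interval inside 0.25 of 0 were added, with the 6 given genes and members of marker lists. Some genes that the rule names are not reported here or drawn in the figures. Gene symbols matched RefSeq for 15874 of 16840 genes. Alternatives were RLE and total-count scaling, DESeq2 1.42.0, other filters, the 4 libraries alone, a replicate block, each library left out, limma 3.58.1 on FPKM, a test against 2-fold, and other level rules. Figures were drawn with matplotlib 3.10.9.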

Additional observations from a re-analysis of the deposited data

How the results depend on the processing

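Counts of genes called were 3393 higher and 3621 lower, and each stayed within 1.5 times these values under all alternatives run. Together they are 56.8% of genes tested, and with DESeq2 (3016 and 3004), limma on FPKM (3001 and 3002, or 2989 and 2998) and without replicate 1 or 2 of the GM-CSF group (2758 and 2930, 2882 and 3080) they come to fewer genes than were not called. Leaving out each library in turn gave 2758 to 3073 higher and 2930 to 3330 lower genes, and 572 to 618 at least 2-fold higher and 770 to 807 at least 2-fold lower. Total-count scaling gave 755 genes at least 2-fold higher and 673 at least 2-fold lower, against 623 and 823. Limma on log2(FPKM + 1), a pseudocount that shrinks changes of low genes, gave 334 genes at least 2-fold higher and 369 lower. A test against a 2-fold change itself gave 340 and 419. Of genes switched on, 10 remained with the low limit at 0.5 CPM and 11 with the high limit at 10 CPM, and of those switched off 1 and 4, both narrower rules by construction. With the replicate block 3238 genes were higher and 3470 lower, and 599 and 808 at least 2-fold. Deviations of same-numbered libraries had r = -0.0476 between the groups compared, across 8164 genes, which are not independent replicates. Among genes named with a fold change 8 lost their call somewhere, 4 gained one under total-count scaling, and none reversed. Those that lost it are Atp6v0d2, Axl, Epcam, Klf6, Pde4d, Slc8a1, Stat6 and Wls, and apart from Slc8a1 and Epcam each had a log2 change under 0.5 in size. With 2 libraries a group and 28800939 to 35196387 counts each, depth limits genes near 0: 3 counts correspond to 0.0907 CPM without GM-CSF and 0.0944 CPM with it, and folds from such levels are imprecise.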

Other observations

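Counts and FPKM of the deposited table give the same change for most genes, and for a few they do not. The ratio of counts to FPKM was compared between the groups for 9425 genes with at least 100 counts in each of the 4 libraries, with limits chosen after the values were seen. For 20 genes it differed by 0.5 or more on the log2 scale, and for 10 of these it also agreed within 0.25 between the replicates of each group. Slc8a1, with a log2 change of -1.41 by counts and -0.26 by FPKM, is among the 20 and not the 10, since its replicates differed by up to 0.58. Uck2, a kinase of pyrimidine salvage, had a log2 change of 1.85 by counts and 1.15 by FPKM. Mycbp, a MYC-binding protein gene, had 0.48 by counts and 1.29 by FPKM. E2f3, a cell-cycle transcription factor, had -0.02 by counts and -0.83 by FPKM. Ttc39b, a regulator of sterol metabolism, had 0.83 by counts and 1.47 by FPKM. Uck2, Mycbp, E2f3 and Ttc39b are among the 10, and the others were Gins2, Akap7, Gca, Rgp1, Fdxacb1 and Mast4. Changes for these genes depend on which of the deposited measures is used.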
